A study of Drosophila melanogaster with 2 samples.

Results

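The muscle contractile genes *Mlc1*, *Prm* and *up* were each represented by 1 feature of the array, so that 3 of the 15744 features in the table were examined here. These features were taken by gene symbol, as all features whose only symbol is one of these 3 names. The genes themselves were chosen with earlier results of these data known. All 3 features have a value on both arrays, as do 15729 of all features. A single gene symbol is given to 67 features of 63 genes in the annotation used here, and the 64 that are not muscle genes of this set served for comparison. These 64 were not drawn at random from the array, so they are not a background of typical genes. The feature of *Mlc1* has the number 11505, that of *Prm* 6689 and that of *up* 5469, and each gene was found under the same symbol in the RefSeq gene table.

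SOPs (sensory organ precursor cells, also called pI cells) were the mother cells of the small bristles of the *Drosophila* notum, the dorsal part of the thorax. They came from pupae at 16 h APF (after puparium formation) that carried the *neuralized*p72-Gal4 driver and a UAS mCD8::GFP transgene, which marks the membranes of SOPs and of their progeny. About 1000 GFP-positive cells, each cut with a margin of surrounding tissue, made up the SOP sample, pooled from many nota. The sample of epithelial cells came from GFP-free areas of nota of the same stage and genotype and covered a similar surface. Both samples were compared on 2 arrays with swapped dyes, Cy3 marking the SOPs on array 1 and Cy5 marking them on array 2. Every value below is a log2 ratio of SOPs over epithelial cells within an array, and a negative one means a lower signal in SOPs. In such bulk samples fewer cells of a type and less RNA per cell cannot be told apart.

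In muscle, myosin filaments pull on actin filaments when calcium releases the block that troponin and tropomyosin place on actin. *Mlc1* encodes the essential (alkali) light chain of muscle myosin, which supports the lever arm of the motor. *Prm* encodes paramyosin, a coiled-coil protein in the core of the thick filaments of invertebrates, and *up* (*upheld*) encodes troponin T, the troponin subunit that binds tropomyosin on the thin filament. Beneath the epithelium of the early pupal notum lie myoblasts and remaining larval muscles, from which the flight muscles are built. The laser cut a path through the whole notum around each chosen area, with a margin left around the SOPs. The question was whether transcripts of contractile genes differed between the SOP and the epithelial cuts.

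None of the 3 genes passed the threshold of limma between SOPs and epithelial cells. *Mlc1* was the lowest of them and the only one with the same sign on both arrays, while *Prm* and *up* had a positive ratio on array 1 and a negative one on array 2. With limma at an adjusted p under 0.05 (Benjamini-Hochberg over the 15729 features), 0 of the 3 features were called higher and 0 lower, and none had an unadjusted p under 0.05. Over all features limma also called 0% higher and 0% lower, so the count of calls does not set these genes apart. At an unadjusted p under 0.05 the shares over all features were 7.45% higher and 6.62% lower. None of the 7 alternative fits called a muscle gene, and 4 of them (centred arrays, centred blocks, a test against a fold of 1.2, features on at least one array) called no feature at all. Scaling both arrays to equal spread called 2.38% of all features higher and 2.45% lower, robust moderation 3.04% and 2.46%, and leaving out positions of the print that repeat a strong ratio 0.772% and 0.584%. Whether each array received RNA of its own extraction is not given in the sources used here. The p-values measure only spread between 2 arrays, which may be technical. In limma this spread comes from the feature itself (1 residual degree of freedom) and from all features together (3.12 prior degrees of freedom). A sign-flip test over 2 arrays could not go below a two-sided p of 0.5 and was not used.

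**Figure D1:**
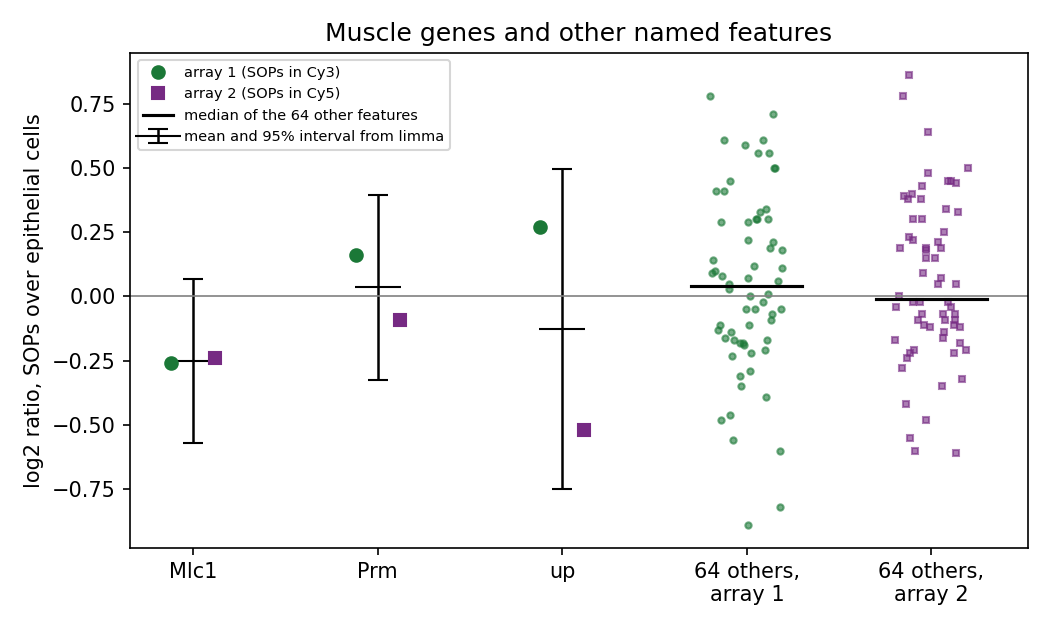
Log2 ratio of SOPs over epithelial cells (vertical axis) for *Mlc1*, *Prm* and *up* on array 1 (green circles) and array 2 (purple squares), with the mean of both arrays and its 95% interval from limma (black), beside the 64 other features with a single gene symbol on each array and their median (black line). The intervals of the 3 genes all hold 0, and only *Mlc1* lies on the same side of 0 on both arrays.

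Of the thick filament genes, *Mlc1* gave -0.26 on array 1 and -0.24 on array 2 as log2 ratios, or 0.835 and 0.847 as linear ratios. The arrays differed by only 0.02, and the signal of the essential light chain was lower in SOPs on both. The mean was -0.25 ± 0.01 (SD, n = 2 arrays), or 0.841-fold, with a 95% interval from limma of 0.674-fold to 1.05-fold (adjusted p = 0.457). This interval is wide beside the SD because limma's standard error of 0.116 on the log2 scale draws mostly on the spread of all features. Negative ratios on both arrays were common, with 29.3% of all features below 0 on both, against 28.5% above 0 on both. A mean below that of *Mlc1* was found for 13.3% of all features and for 7 of the 64 other named features. The feature lies in the 18th of 24 equal stretches of the table, a block with a median of 0.15 on array 1 and -0.05 on array 2. After each block had been centred on its median, the mean of *Mlc1* was -0.30 (adjusted p = 0.398 from limma).

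For *Prm* the log2 ratios were 0.16 (array 1) and -0.09 (array 2), that is linear ratios of 1.12 and 0.94. The signal for paramyosin was thus higher in SOPs on one array and lower on the other. Its mean of 0.035 ± 0.18 (SD, n = 2 arrays), or 1.02-fold, was the nearest to 0 of the 3 genes. The 95% interval from limma ran from 0.798-fold to 1.32-fold (adjusted p = 0.938). A mean of larger size was found for 85.2% of all features. On both arrays 1119 other features lay within 0.1 of it on the log2 scale, so that *Prm* sat in the dense middle of the data. The gene also encodes the shorter miniparamyosin. RefSeq lists 5 transcripts for it, and the sources used here do not say which of them the oligonucleotide binds.

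For *up*, the thin filament gene, array 1 gave a log2 ratio of 0.27 and array 2 one of -0.52, or linear ratios of 1.21 and 0.697. These values lie on either side of 0 and are the farthest apart of the 3 genes. On array 1 the troponin T signal stood above 82.1% of all features, and on array 2 only above 4.25%. The mean was -0.125 ± 0.56 (SD, n = 2 arrays), or 0.917-fold, with a 95% interval from limma of 0.596-fold to 1.41-fold (adjusted p = 0.861). Taken as array 1 minus array 2 and divided by 2, the difference between the arrays was 0.395, against -0.01 for *Mlc1* and 0.125 for *Prm*. A difference of larger size was found for 3.41% of all features. The arrays differ in the dyes as well as in the hybridisation, and with 1 array of each orientation the effects of dye and array cannot be told apart. RefSeq lists 18 transcripts for this gene and 3 for *Mlc1*, and which of them these features bind is likewise not given in the sources used here.

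**Figure D2:**
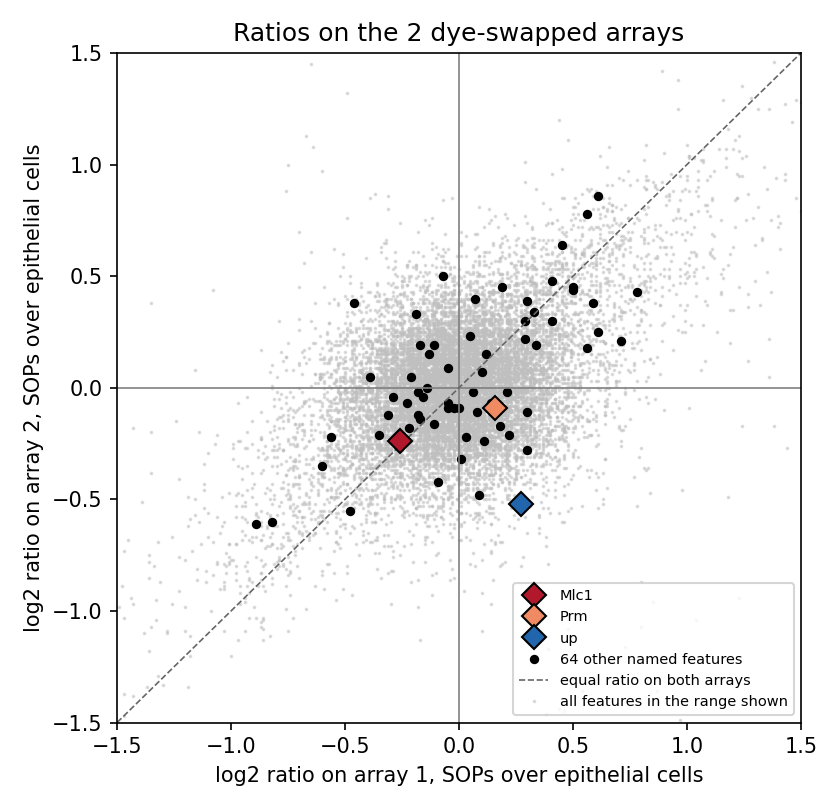
Log2 ratio of SOPs over epithelial cells on array 1 (horizontal axis) against array 2 (vertical axis) for *Mlc1*, *Prm* and *up* (coloured diamonds), the 64 other named features (black points) and all features within the range shown (grey points); the dashed line marks equal ratios. *Mlc1* lies on the dashed line at -0.26 and -0.24, *Prm* near the centre, and *up* at 0.27 and -0.52, away from the bulk of the points.

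The order of the 3 genes changed between the arrays. On array 1 *up* was the highest, followed by *Prm* and then *Mlc1*, and on array 2 *Prm* was the highest, followed by *Mlc1* and then *up*. *Prm* exceeded *Mlc1* by 0.42 on array 1 and by 0.15 on array 2, a mean difference in log2 ratio of 0.285 ± 0.19 (SD, n = 2 arrays). The difference between *up* and *Mlc1* turned sign, with 0.53 on array 1 and -0.28 on array 2, and so did that between *up* and *Prm*, with 0.11 and -0.43. *Prm* thus stayed above *Mlc1* on both arrays, while *up* did not keep its place relative to either. With 3 features and 2 arrays this order is a description only.

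The spread between features of 1 gene gives a rough scale for the ratios of the muscle genes. Among the other named features 4 genes, *CG17684*, *Dbp80*, *Gyg* and *eIF4B*, are represented by 2 features each. Within an array the log2 ratios of such a pair lay 0.02 to 0.86 apart, with a median of 0.185. The widest gap was that of *Dbp80* on array 2, with -0.22 and 0.64, and the narrowest that of *CG17684* on the same array, with 0.40 and 0.38. In distance from 0, 4 of the 6 ratios of the muscle genes (both of *Mlc1* and both of *up*) were above this median, and none was above the widest gap. The distance of a single ratio from 0 is not the same measure as a gap between 2 features. These gaps come from other genes and were looked at after the data had been seen, so they are a description only. No muscle gene of this set has a second feature with its name, so the spread between features was not measured for them.

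As a group, the 3 features had a median of the mean log2 ratios of -0.125, against 0.01 for the 64 other named features and -0.005 for all features. The median of the 3 was above that of the other named features on array 1 (0.16 against 0.04) and below it on array 2 (-0.24 against -0.01). The direction of the group thus depended on the array. No muscle gene passed a fold of 1.2 in one direction on both arrays, which 7.47% of all features did as higher and 6.64% as lower in SOPs. Of the 64 other named features, 12 (18.8%) did so as higher and 4 (6.25%) as lower. They were compared because they have a name, and their share of higher features differs from that of all features. At a fold of 1.5 the share over all features was 2.15% higher and 2.14% lower, and at a fold of 2 it was 0.445% and 0.788%, again with none of the 3 muscle genes. The median SD between the arrays was 0.15 over all features, so *Mlc1* with 0.01 varied less than most, *Prm* with 0.18 about as much, and *up* with 0.56 more.

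The intervals give the range of ratios left under limma's model, which pools the spread between the 2 arrays over features. In the plot of the intervals by setting, a 2-fold difference in either direction lay outside the interval of each gene under all 7 settings. The widest bounds over these settings were 0.640-fold to 1.05-fold for *Mlc1*, 0.797-fold to 1.33-fold for *Prm* and 0.585-fold to 1.46-fold for *up*. They are no limit of detection, since no feature passed the adjusted threshold as reported, though the means ran from -4.31 to 3.75 over all features. Values that miss the threshold do not show that the samples were alike. These bounds refer to the normalised ratio on the array. How far each spot stood above background is unknown, since scanner intensities were not used here, so a ratio near 1 does not tell whether muscle transcripts were present in both samples or in neither.

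**Figure D3:**
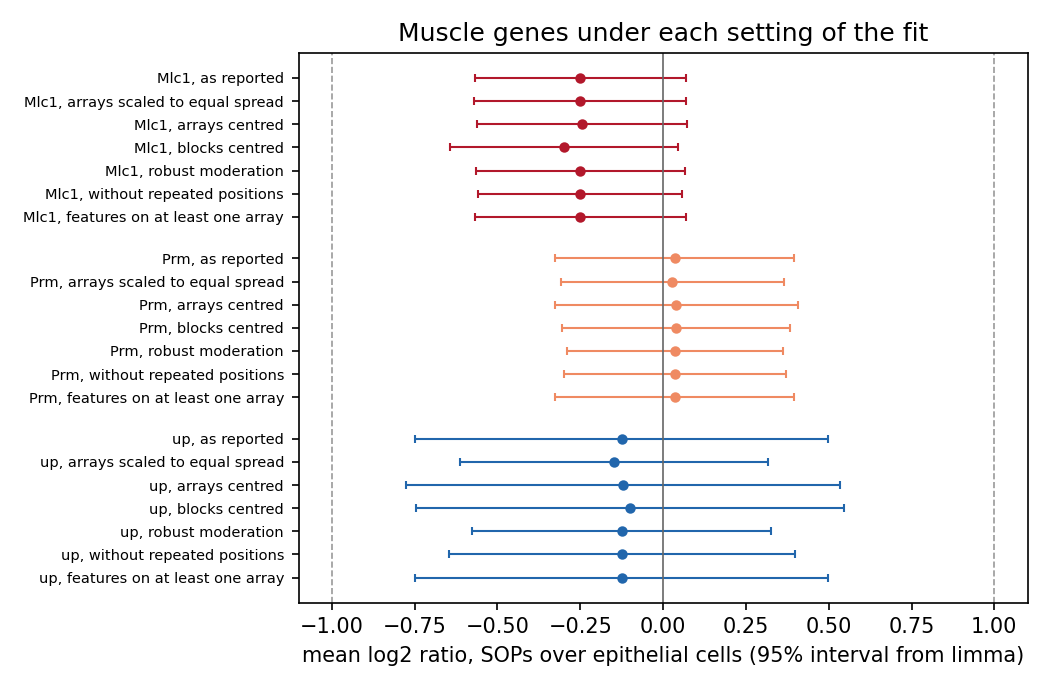
Mean log2 ratio of SOPs over epithelial cells (horizontal axis, points) with the 95% interval from limma (bars) for *Mlc1*, *Prm* and *up* under each of 7 settings of the fit; dashed lines mark a log2 ratio of -1 and 1, a 2-fold difference. All intervals hold 0 and none reaches a 2-fold difference.

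Among the named features, those nearest to *Mlc1* by the distance between the log2 ratios on the 2 arrays were a feature of *Gyg* at 0.07, that of *CG9485* at 0.09 and that of *kl-3* at 0.13. The nearest to *Prm* were *CG43102* at 0.03, *mRpS5* at 0.08 and *FucTC* at 0.08. The nearest to *up* lay farther off, with *ATbp* at 0.18, *Rab21* at 0.24 and *CG5860* at 0.31. This likeness rests on 2 values a gene and is a description only. The range of the named features was wider than that of the muscle genes: the lowest means were those of *Cht10*, a chitinase gene, with -0.75 ± 0.20, *CG3558* with -0.71 ± 0.16 and *Gfat1* with -0.515 ± 0.05 (SD, n = 2 arrays). The highest were those of the nucleolar protein genes *Nop60B*, with 0.735 ± 0.18, and *Nop56*, with 0.67 ± 0.16, followed by *Gprk1* with 0.605 ± 0.25 (SD, n = 2 arrays). These 6 did not pass limma either (adjusted p = 0.144 to 0.203).

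The rest of the muscle program could not be read from the names given. The 5 lists of thin filament, thick filament, Z disc and scaffold, calcium and energy, and myoblast genes hold 65 gene symbols, with synonyms of a gene counted separately. Of these symbols, only *Mlc1*, *Prm* and *up* are the single symbol of a feature. Other sarcomere genes, such as those for myosin heavy chain, tropomyosin and the actins, and myoblast genes such as *Mef2* and *twi* were therefore not analysed here. From these 5 lists, the study's own list of genes raised in SOPs holds *Ca-P60A* (calcium and energy) and *ct* (myoblast). That list gives raised genes only, and *ct* is also on the list of SOP markers used here. Their features were not identified here. None of the 12 SOP markers on the list and 1 of the 14 epithelial markers has a named feature, so the cell type of the samples was not checked here by named markers. The epithelial one is *p120ctn*, an adherens junction gene, with 0.01 on array 1 and -0.32 on array 2. The study itself listed *sens*, *neur*, *sca*, *peb*, *sv*, *phyl*, *mira*, *insv* and *ct* among genes raised in SOPs on its arrays, but not *sc* or *ase*. It reported *ac* as similar in both samples, and *sens* and *gfp* as higher in SOPs by quantitative PCR. Transcripts of *gfp* were still detected in its epithelial sample. The lists of haemocyte, fat body, tracheal and neuronal genes have no named feature, so the presence of these cells was not tested. From them, the study listed *Lsp1beta* (fat body) and *vvl* (trachea) as raised in SOPs, and it counted *vvl* among known SOP genes.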

How the data were processed

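Before labelling, the authors amplified the RNA in 2 rounds of in vitro transcription, so each ratio compares amplified RNA. The effect of the amplification on these ratios was not tested. The authors normalised each 2-colour array separately by lowess with limma (its version is not given in the sources used here), without background correction and after removal of flagged spots and controls from their analysis. The deposited values are log2 ratios. The table used here holds 15744 features, with 8 values missing on array 1 and 7 on array 2, and no controls were removed from it here. Which features the authors left out as flagged spots or controls is not given in the sources used here. Shares over all features and the fits may therefore include some of them. Shares over all features and the fit as reported include 312 features at the repeated positions defined below. Background left in both channels draws the ratio of a dim spot towards 1. The table states neither scale nor direction. Both were taken from the ratios listed by the study for genes raised in SOPs: outside the repeated positions defined below, 18 of the 22 that are 3.5 or more equal the arithmetic mean of a feature's linear ratios within rounding (0.005 on the log2 scale), against 2 with both columns turned, 1 with array 1 turned and 0 with array 2 turned. Centring beyond lowess is unknown, and the medians were -0.01 on array 1 and 0 on array 2. The arrays correlated across features with Pearson's r = 0.54, though features are not independent replicates.

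Features are named from an old platform annotation, in which 67 have 1 symbol, 1 has several and 15676 have none. Genome positions and oligonucleotide sequences were not used here. The log2 ratios were averaged over the arrays and tested with limma 3.58.1 (R 4.3.3; mean as the only term, empirical Bayes, 1 residual and 3.12 prior degrees of freedom, Benjamini-Hochberg over 15729 features). The fit was tested only on data simulated from limma's own variance model, with the spread of the features outside the repeated positions. These data had independent normal errors and no dye or array effect. The test therefore cannot show how the fit behaves where such effects are present. Tables were handled in Python 3.11.15 with pandas 2.3.3. The number of arrays limits the precision. Named genes were the 3 muscle genes, members of marker lists with a named feature, the 3 nearest named features to each, and the 3 highest and 3 lowest. The genes and lists were chosen with earlier results of these data known. The comparison of paired features was chosen after seeing the data. Alternatives were scaled or centred arrays, centred blocks, robust moderation, a test against a fold of 1.2, the arithmetic mean, each array alone, features on at least one array, and leaving out 312 features at 13 repeated positions (positions of a print block, inferred from the ratios, whose median over the 24 blocks passes 0.5 in size on an array).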

Additional observations from a re-analysis of the deposited data

How the results depend on the processing

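The muscle genes were called neither higher nor lower under scaled arrays, centred arrays, centred blocks, robust moderation, a test against a fold of 1.2 or without the repeated positions. In the 7 fits with an interval the adjusted p from limma was 0.398 to 0.470 for *Mlc1*, 0.925 to 0.960 for *Prm* and 0.819 to 0.895 for *up*. Single arrays turned the direction of *Prm* (-0.09 to 0.16), of *up* (-0.52 to 0.27), of the median of the 3 features (-0.24 to 0.16) and of its difference from the other named features (-0.23 to 0.12), but not that of *Mlc1* (-0.26 to -0.24). Over all features limma called 0 higher and 0 lower as reported, against 375 and 385 with scaled arrays, 478 and 387 with robust moderation, and 119 and 90 without the repeated positions. It called 0 and 0 with centred arrays, centred blocks, a test against a fold of 1.2 and features on at least one array; the cause was not tested. Signal over background is unknown, so filters on dim spots and other background corrections were not run. The ratio within an array is itself a paired difference of both cell samples, so the fit as reported is the paired one, and no fit without the pairing could be made from ratios.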
